A study of Homo sapiens with 16 samples.

Results

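Histone methylation on lysine is written and removed by enzymes, and 40 genes for such enzymes and their core partners were followed across 16 RNA sequencing libraries of MCF10A, a non-transformed line of human breast epithelial cells. The genes were chosen by name, 18 lysine demethylases and 22 methyltransferases or subunits of the Polycomb repressive complex PRC2. A gene was kept when its log2 expression was at least about 3.3, near a linear value of 10, in at least 2 libraries. All 40 passed, among 13564 genes that did so in the whole table. A Mock stock carried the empty vector and a second stock overexpressed PHF8, itself a histone demethylase and a member of the set. Both stocks grew in medium with epidermal growth factor, insulin, hydrocortisone, cholera toxin and horse serum, and were either left untreated or given TGF-β1 at 5 ng/ml for 24, 48 or 72 h. TGF-β1 is a cytokine that induces epithelial-mesenchymal transition. Each of the 8 groups had 2 libraries. The labels name only one stock of each kind, so that an effect of PHF8 and any other difference between the stocks cannot be told apart.

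Lysine methylation marks chromatin according to its site. Methylation of H3K4 and H3K36 is found at active genes, whereas methylation of H3K9 and H3K27 is found at silenced ones. Methyltransferases with a SET domain place most of these marks, and demethylases of the LSD or JmjC type take them off. Several of these enzymes are known partners of the transcription factors that drive epithelial-mesenchymal transition, among them KDM1A, which binds the SNAI1 repressor, and PRC2.

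Values are log2 expression as deposited, and differences are on the same scale. The labels state that the replicates were sequenced in separate rounds, replicate 1 in round 1 and replicate 2 in round 2. They do not say whether replicates were separate cultures, and p-values therefore measure the spread between these libraries, which may be technical. The files give no counts, and the depth of each library is unknown. Markers of basal breast epithelium were high throughout, with KRT5 between 14.35 and 15.64, in all 16 libraries. Of 7 luminal markers, KRT8 (11.74 to 12.92), KRT18 (11.69 to 12.93), FOXA1 (6.23 to 8.07), GATA3 (5.81 to 6.97) and ESR1 (4.14 to 5.92) passed the filter, PGR was listed at 0, and KRT19 did not pass 1.39. Of 5 endothelial and blood markers, CD14 (5.75 to 9.64) and PECAM1 (3.58 to 4.55) passed, and CDH5, VWF and PTPRC lay below 0 in all libraries. Of 6 fibroblast markers, THY1 and LUM lay below 0, and PDGFRA and PDGFRB did not pass the filter. DCN, at 7.74 to 12.8, and FAP, at 9.07 to 12.5, passed it, and FAP rose by 2.45 after 24 h of TGF-β1 (adjusted p = 4.19e-05 in limma). The part of these markers in the results on the enzymes was not tested. In RNA from bulk cultures, fewer cells of a type and less RNA per cell cannot be told apart.

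PHF8, which binds trimethylated H3K4 and removes methyl groups from H3K9 and H4K20, served as the check of the labels. In the Mock stock it read 9.65 and 9.61 untreated, 9.33 and 9.72 at 24 h, 9.34 and 9.48 at 48 h and 9.26 and 9.54 at 72 h, round 1 first. The PHF8 stock read 14.47 and 13.64 untreated, 14.52 and 13.69 at 24 h, 14.65 and 13.97 at 48 h and 14.73 and 14.23 at 72 h. The stocks did not overlap at any time, and the round 1 libraries of the PHF8 stock were above those of round 2 in each condition. Within round 1 the mean difference was 5.20 and within round 2 it was 4.29. The other member of its family among the 40 genes, PHF2, a demethylase of dimethylated H3K9, lay between 9.25 and 10.07 in all 16 libraries.

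The first comparison asked whether other enzymes of histone methylation differed between the stocks. Over the 4 conditions, PHF8 was the only 1 of the 40 members to pass the test (adjusted p = 1.04e-07 in limma, Benjamini-Hochberg over all genes), or 2.5% of members against 1.69% of all genes tested. PHF8 is the gene that this stock overexpresses, so its call was set by the design, and none of the other 39 passed. The PHF8 call held in each single condition, where differences were 4.42 untreated, 4.58 at 24 h, 4.90 at 48 h and 5.08 at 72 h. There 0.00737% to 0.0147% of all genes were called, and the lower share is 1 gene, PHF8 itself. For 36 of the other 39 members the 95% interval of the mean difference lay within 0.5 of 0, and for all 39 within 1. The median over the 39 was -0.0443, against -0.0076 over all genes tested.

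With the sequencing round as a block, 6 members, PHF8 included, were called in the mean over 4 conditions, or 15% against 9.11% of all genes. The 5 besides PHF8 were small differences in demethylases. The 8 libraries of a stock are 4 conditions in each round, and these p-values count the conditions as replicates of the stock. A stock difference that changes with the round has no term in the model. KDM1B, a flavin-dependent demethylase of H3K4, was higher in the PHF8 stock by 0.33 ± 0.0781 (SE, n = 8 libraries per stock), with adjusted p = 0.0642 without the block and 0.00876 with it. It ranged from 8.36 to 8.76 in Mock and from 8.71 to 9.15 in the PHF8 stock, so that the stocks overlapped narrowly, and it was higher in 8 of 8 pairs of libraries of the same round and time. KDM3A, a demethylase of mono- and dimethylated H3K9, differed by 0.31 (adjusted p = 0.164, or 0.0199 with the block), and stood at 0.49 in the first round against 0.14 in the second. KDM5A, which removes H3K4 methylation, differed by 0.17 (adjusted p = 0.163, or 0.0245 with the block), with 0.17 and 0.16 in the rounds. Both were higher in 8 of 8 pairs. KDM3B and PHF2, H3K9 demethylases of different families, were lower, by -0.13 (adjusted p = 0.232, or 0.033 with the block) and -0.23 (adjusted p = 0.365, or 0.0217 with the block).

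The rounds differed in how far the stocks stood apart. A fit on 1 round has 1 library per stock and condition, so its p-values measure how steady the stock difference was over the conditions. They do not measure the spread between replicates. Fitted on round 1 alone, with the 4 conditions as pairs, the stock comparison called 11 members, where 26.9% of all genes were called. Round 2 alone called 3, namely PHF8, KDM1B and KDM5A, where 5.93% of all genes were called. KDM4B, an H3K9 demethylase, read 0.40 higher in the PHF8 stock in round 1 and -0.09 in round 2. SUV39H1, an H3K9 methyltransferase, read -0.40 and 0.00 in the same rounds. Of the 39 members without PHF8, 10 were higher in the PHF8 stock in both rounds, 17 were lower in both, and 12 had opposite signs. The same split over all genes is not given here, so these counts describe the members only.

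**Figure D1:**
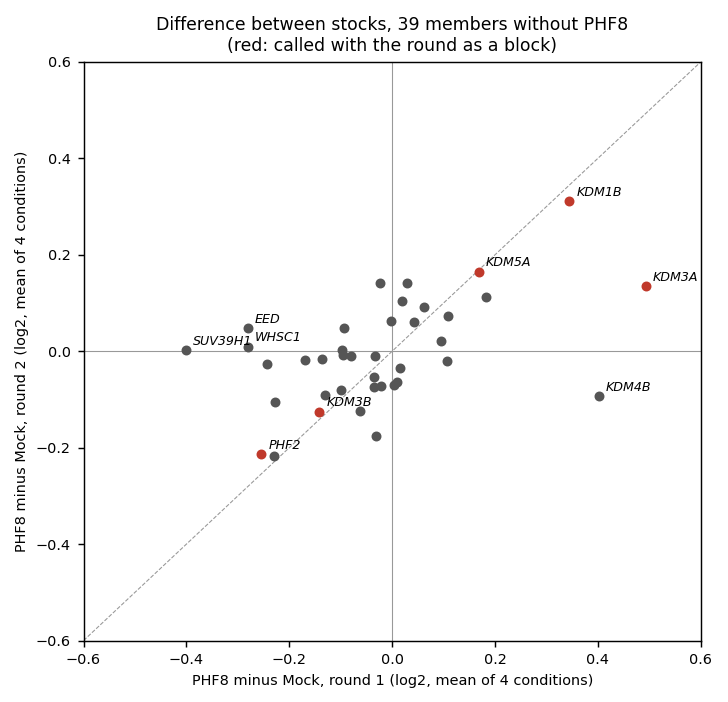
Difference between the PHF8 and Mock stocks (log2, mean of 4 conditions) in round 1 on the horizontal and in round 2 on the vertical axis, 1 point for each of 39 members without PHF8; red points were called with the round as a block and the dashed line marks equal values. KDM1B and KDM5A lie near the line, KDM3A is farther to the right, and KDM4B has opposite signs in the rounds.

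The second comparison asked how the enzymes changed under TGF-β1, as the mean over both stocks with 4 libraries per time. After 24 h, 13 of 40 members had changed, or 32.5%, against 33.3% of all genes tested. The share is close to the background. The 6 of these 13 that rose were all demethylases, of 18 in the set, where 17.1% of all genes rose. The 7 that fell were all H3K9 methyltransferases or PRC2 subunits, of 22 members that are not demethylases. Of all genes, 16.3% fell. In the further lists given last, JmjC proteins moved both ways, and with the block other lysine methyltransferases did so too. The median difference was 0.197 over the demethylases and -0.125 over the methyltransferases and PRC2, against -0.00781 over all genes. With the round as a block, 18 members were called (8 higher, 10 lower), or 45% against 49.5% of all genes (24.5% higher and 25% lower), and 1 of the 10 lower ones was a demethylase, KDM4C. The added calls were PHF2 and KDM6B, higher, and KDM4C, EZH1 and SUZ12, lower.

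**Figure D2:**
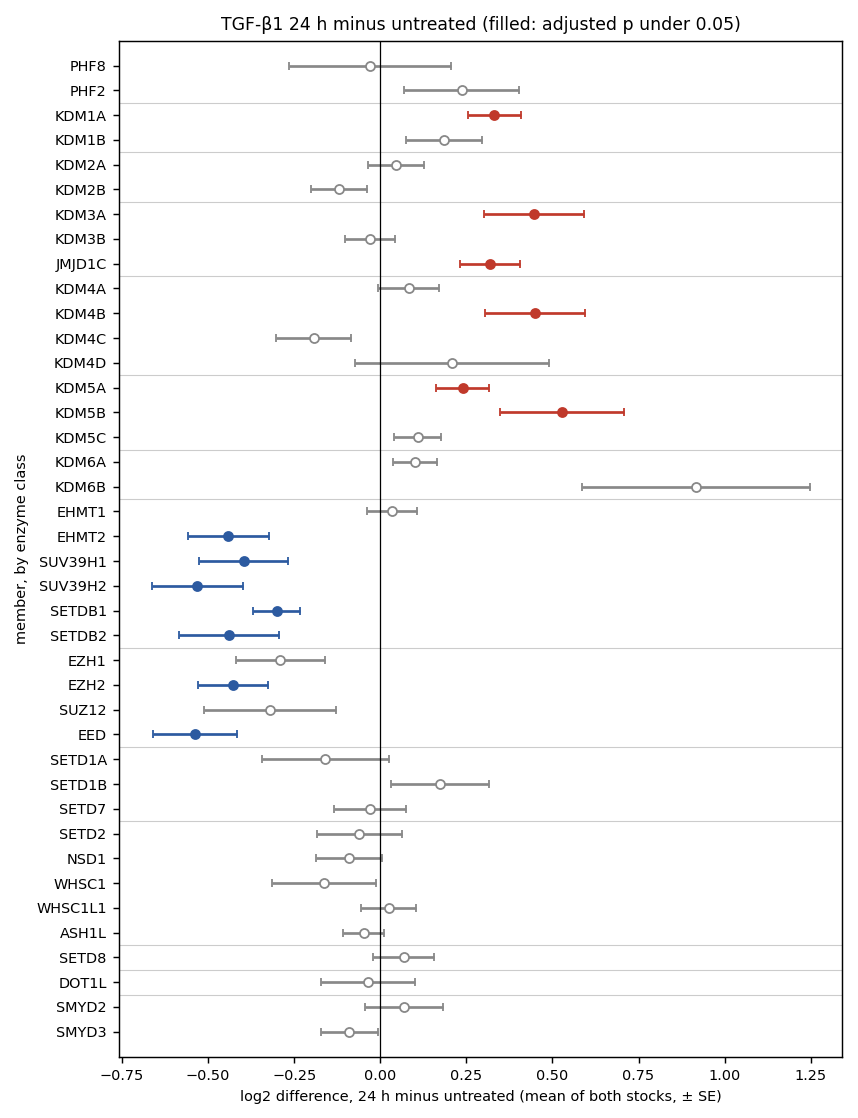
Log2 difference between 24 h of TGF-β1 and untreated for each of the 40 members, mean of both stocks (n = 4 libraries per time), with bars of 1 SE; members stand in order of class and filled points have an adjusted p under 0.05. The 6 filled points on the right are demethylases, from KDM5A at 0.24 to KDM5B at 0.53, and the 7 on the left are methyltransferases or PRC2 subunits, from SETDB1 at -0.30 to EED at -0.54.

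In what follows, the 4 levels of a time are given in the order Mock round 1, Mock round 2, PHF8 round 1 and PHF8 round 2. KDM1A, also known as LSD1, the flavin-dependent demethylase of mono- and dimethylated H3K4 within the CoREST complex, read 12.33, 12.17, 12.18 and 12.10 untreated and 12.56, 12.49, 12.64 and 12.42 at 24 h. It read 12.49, 12.49, 12.57 and 12.43 at 48 h and 12.51, 12.41, 12.52 and 12.36 at 72 h. All 12 treated libraries were above all 4 untreated ones. The rise was 0.33 ± 0.0757 at 24 h (SE, n = 4 per time; adjusted p = 0.0067), 0.30 at 48 h (adjusted p = 0.0115) and 0.25 at 72 h (adjusted p = 0.03), and the 3 comparisons share their untreated libraries. At 24 and 48 h the KDM1A calls held whichever of the 16 libraries was dropped. At 72 h the call was lost without either Mock library at 72 h, the 72 h PHF8 library of round 1 or either untreated round 2 library, with adjusted p of 0.0511 to 0.109. The related KDM1B read from 8.36 to 8.99 untreated and from 8.62 to 9.15 at 24 h, a difference of 0.19 that did not pass (adjusted p = 0.223).

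Of the demethylases of H3K9 in the KDM3 and KDM4 families, KDM3A, JMJD1C and KDM4B rose at 24 h. KDM3A read 8.52, 8.56, 9.10 and 8.62 untreated and 9.07, 8.92, 9.54 and 9.05 at 24 h. Each treated library was above its own untreated partner, but the round 1 PHF8 library started high and the groups overlapped. The difference was 0.45 ± 0.145 (n = 4 per time; adjusted p = 0.0343), then 0.38 at 48 h (adjusted p = 0.0658, or 0.00751 with the block) and 0.37 at 72 h (adjusted p = 0.0837, or 0.0104 with the block). Its 24 h call was lost without any 1 of the 4 Mock libraries at 0 or 24 h, the 24 h PHF8 library of round 1 or the untreated PHF8 library of round 2 (adjusted p of 0.0607 to 0.132). JMJD1C, a KDM3 relative and coactivator of nuclear receptors, read 11.10, 11.00, 10.98 and 10.94 untreated and 11.23, 11.31, 11.35 and 11.41 at 24 h, with no overlap. It rose by 0.32 ± 0.086 (adjusted p = 0.0156), and the call was lost without either round 2 Mock library at 0 or 24 h (adjusted p = 0.0532 and 0.0537). At 48 h its difference was 0.22 (adjusted p = 0.0796, or 0.0353 with the block). KDM3B, a close relative of KDM3A, differed by -0.03 at 24 h (adjusted p = 0.795; 95% interval -0.19 to 0.13).

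KDM4B, which removes di- and trimethylation of H3K9, read 8.50, 8.74, 8.98 and 8.62 untreated and 8.95, 9.16, 9.44 and 9.09 at 24 h. It was higher in 4 of 4 pairs, although the lowest treated library lay below the highest untreated one. It rose by 0.45 ± 0.144 (n = 4 per time; adjusted p = 0.0333). Without the untreated Mock library of round 1, the 24 h PHF8 library of round 1, the 24 h Mock library of round 2 or the untreated PHF8 library of round 2, the adjusted p was 0.104 to 0.122. At 48 and 72 h the difference was 0.24 (adjusted p = 0.236) and 0.22 (adjusted p = 0.288). KDM4A and KDM4C, which share its activity, differed at 24 h by 0.08 (adjusted p = 0.52) and -0.19 (adjusted p = 0.192, or 0.0451 with the block). KDM4D, the short member of the family that lacks the reader domains, read between 3.35 and 5.16, close to the filter. Its difference was 0.21 at 24 h, 0.69 at 48 h and 0.68 at 72 h (adjusted p = 0.609, 0.0825 and 0.0957; 0.0177 and 0.021 with the block at the later times).

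The KDM5 family removes di- and trimethylation of H3K4. KDM5B read 11.80, 12.20, 11.97 and 12.27 untreated and 12.40, 12.84, 12.35 and 12.76 at 24 h. All treated libraries were above all untreated ones, and round 2 was higher than round 1 in every group. The rise was 0.53 ± 0.18 (n = 4 per time; adjusted p = 0.0424), and with the round as a block the adjusted p was 1.16e-05. Without the block the call was lost when the untreated round 1 library of either stock, the round 2 library at 24 h of either stock or the untreated PHF8 library of round 2 was left out (adjusted p of 0.0552 to 0.149). At 48 and 72 h the difference was 0.41 and 0.40, with adjusted p = 0.105 and 0.122 without the block and 4.68e-05 and 6.6e-05 with it. KDM5A read 11.19, 11.17, 11.36 and 11.38 untreated and 11.42, 11.47, 11.53 and 11.62 at 24 h. These groups did not overlap, and the rise was 0.24 ± 0.0766 (adjusted p = 0.0329). That call was lost without any 1 of the 4 untreated libraries, either Mock library at 24 h or the 24 h PHF8 library of round 2 (adjusted p of 0.0575 to 0.091). KDM5C, the X-linked member, differed by 0.11 (adjusted p = 0.245).

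Of the demethylases of H3K27, KDM6B (JMJD3), which is known as an inducible gene in many cell types, had the largest 24 h difference of the 40 members, without passing the test. It read 6.29, 6.32, 5.86 and 6.14 untreated and 6.59, 7.57, 6.65 and 7.47 at 24 h. All 4 treated libraries were above the untreated ones, and the 2 of round 2 stood highest. The difference was 0.92 ± 0.33 (adjusted p = 0.052), made up of 0.54 in the first round and 1.29 in the second, and the adjusted p was 0.0015 with the round as a block. By 72 h it was 0.23 (adjusted p = 0.665). KDM6A, its X-linked relative, differed by 0.10 at 24 h (adjusted p = 0.249). KDM2B, an H3K36 demethylase that also recruits Polycomb to CpG islands, lay between 9.20 and 9.52 in all libraries and differed by -0.12 at 24 h (adjusted p = 0.281).

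**Figure D3:**
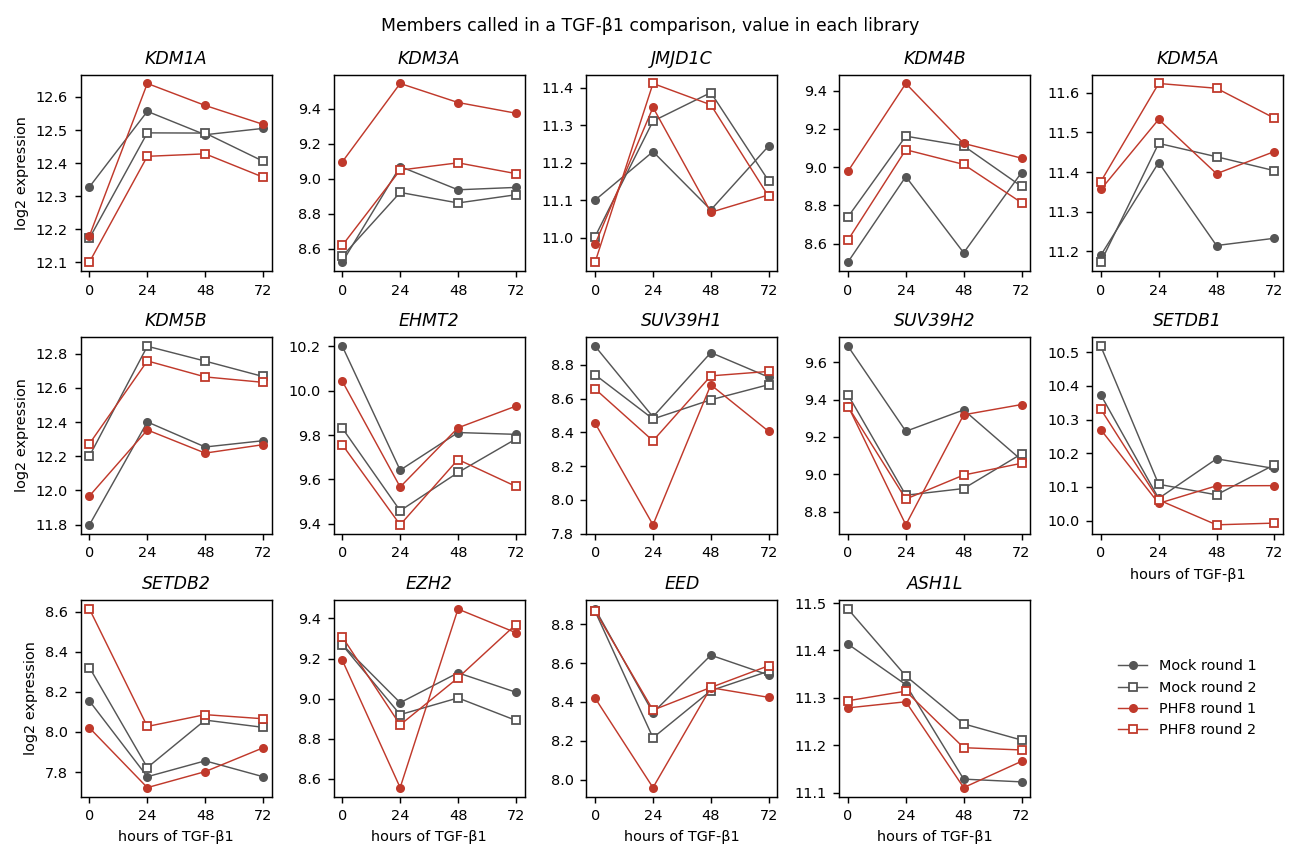
Log2 expression (vertical axes, each with its own range) against hours of TGF-β1 in the 14 members other than PHF8 that were called in a TGF-β1 comparison; each line joins the 4 libraries of 1 stock and round, grey for Mock and red for PHF8, filled for round 1 and open for round 2. KDM1A stays above its untreated levels at 3 times and SETDB1 below them, while in EED, EZH2 and SUV39H1 the lowest level is at 24 h on most lines.

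Among methyltransferases, 5 of the 6 that act on H3K9 fell at 24 h, where 16.3% of all genes fell. SETDB1, which trimethylates H3K9 together with the TRIM28 corepressor, read 10.37, 10.52, 10.27 and 10.33 untreated and 10.07, 10.11, 10.05 and 10.06 at 24 h. It read 10.18, 10.08, 10.10 and 9.99 at 48 h and 10.15, 10.17, 10.10 and 9.99 at 72 h. All 12 treated libraries were below all 4 untreated ones. SETDB1 fell by 0.30 ± 0.0678 at 24 h (n = 4 per time; adjusted p = 0.00627), by 0.29 at 48 h (adjusted p = 0.00836) and by 0.27 at 72 h (adjusted p = 0.0131). The 24 and 48 h calls held with any 1 library left out, and the 72 h call was lost without the untreated Mock library of round 2 (adjusted p = 0.0577) or the 72 h PHF8 library of round 2 (adjusted p = 0.0539). In a GENCODE annotation, 13.4% of its exon bases overlap CERS2 on the opposite strand. The libraries were stranded per the labels, but the strand setting of the counting is not given in the sources used here, so that reads of such partners may not be told apart.

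The paralogues SUV39H1 and SUV39H2 trimethylate H3K9 in heterochromatin. SUV39H2 read 9.69, 9.43, 9.37 and 9.36 untreated and 9.23, 8.89, 8.73 and 8.87 at 24 h. The groups did not overlap, and it fell by 0.53 ± 0.131 (n = 4 per time; adjusted p = 0.0101), a call that held with any 1 library left out. SUV39H1 read 8.91, 8.74, 8.45 and 8.66 untreated and 8.49, 8.48, 7.85 and 8.35 at 24 h. It was lower in 4 of 4 pairs, with a slight overlap and its lowest value in the round 1 PHF8 library. It fell by 0.40 ± 0.13 (adjusted p = 0.0356). The call was lost without any 1 of the 4 Mock libraries at 0 or 24 h, the 24 h PHF8 library of round 1 or the untreated PHF8 library of round 2 (adjusted p of 0.0545 to 0.125). Of its exon bases, 20.3% overlap an antisense transcript. At 72 h the differences were -0.31 in SUV39H2 (adjusted p = 0.109, or 0.0261 with the block) and -0.05 in SUV39H1 (adjusted p = 0.832). At 48 h SUV39H2 differed by -0.31 (adjusted p = 0.0918, or 0.0211 with the block).

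EHMT2, also called G9a, and EHMT1 form a heteromer that mono- and dimethylates H3K9 in euchromatin. EHMT2 read 10.20, 9.83, 10.04 and 9.76 untreated and 9.64, 9.46, 9.57 and 9.40 at 24 h, without overlap. It fell by 0.44 ± 0.118 (n = 4 per time; adjusted p = 0.0147), and the call was lost without the untreated round 1 library of either stock or the 24 h Mock library of round 2 (adjusted p of 0.0528 to 0.0581). Its difference was -0.22 at 48 h and -0.19 at 72 h (adjusted p = 0.19 and 0.275, or 0.0206 and 0.0429 with the block). Its partner EHMT1 lay between 9.86 and 10.13 in all 16 libraries and differed by 0.03 at 24 h (adjusted p = 0.765; 95% interval -0.13 to 0.20). SETDB2, a further H3K9 methyltransferase, read 8.15, 8.32, 8.02 and 8.61 untreated and 7.78, 7.82, 7.72 and 8.03 at 24 h. It was lower in 4 of 4 pairs, and the groups overlapped slightly. It fell by 0.44 ± 0.146 (adjusted p = 0.0379), a call lost without any 1 of the 4 Mock libraries at 0 or 24 h, the 24 h PHF8 library of round 1 or the untreated PHF8 library of round 2 (adjusted p of 0.0586 to 0.146). It differed by -0.33 at both 48 and 72 h (adjusted p = 0.113 and 0.118, or 0.0142 and 0.0145 with the block).

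PRC2 methylates H3K27, with EZH1 or EZH2 as the catalytic subunit and SUZ12 and EED as its core. All 4 had a lower mean at 24 h, and EED and EZH2 passed the test, where 16.3% of all genes were called lower. EED, which binds the trimethylated mark, read 8.88, 8.87, 8.42 and 8.87 untreated and 8.34, 8.22, 7.96 and 8.36 at 24 h. EZH2 read 9.27, 9.27, 9.19 and 9.31 untreated and 8.98, 8.92, 8.56 and 8.87 at 24 h. Neither gene's groups overlapped, and the round 1 PHF8 library was the lowest in both. EED fell by 0.54 ± 0.122 (n = 4 per time; adjusted p = 0.00653) and EZH2 by 0.43 ± 0.101 (adjusted p = 0.00813), and both calls held with any 1 library left out. At 72 h the differences were -0.23 in EED (adjusted p = 0.19) and -0.10 in EZH2 (adjusted p = 0.5).

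EZH1, the catalytic subunit known from non-dividing cells, read 8.43, 8.64, 8.73 and 8.83 untreated and 7.98, 8.48, 8.22 and 8.49 at 72 h. Each treated library was below its untreated partner. Its difference was -0.29 at 24 h (adjusted p = 0.105), -0.30 at 48 h (adjusted p = 0.0969) and -0.37 at 72 h (adjusted p = 0.0556), and with the block all 3 passed (adjusted p = 0.0202, 0.0171 and 0.00704). SUZ12 differed by -0.32 at 24 h (adjusted p = 0.224, or 0.00778 with the block). The deposited table also holds SUZ12P, a near copy that may share its reads.

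**Figure D4:**
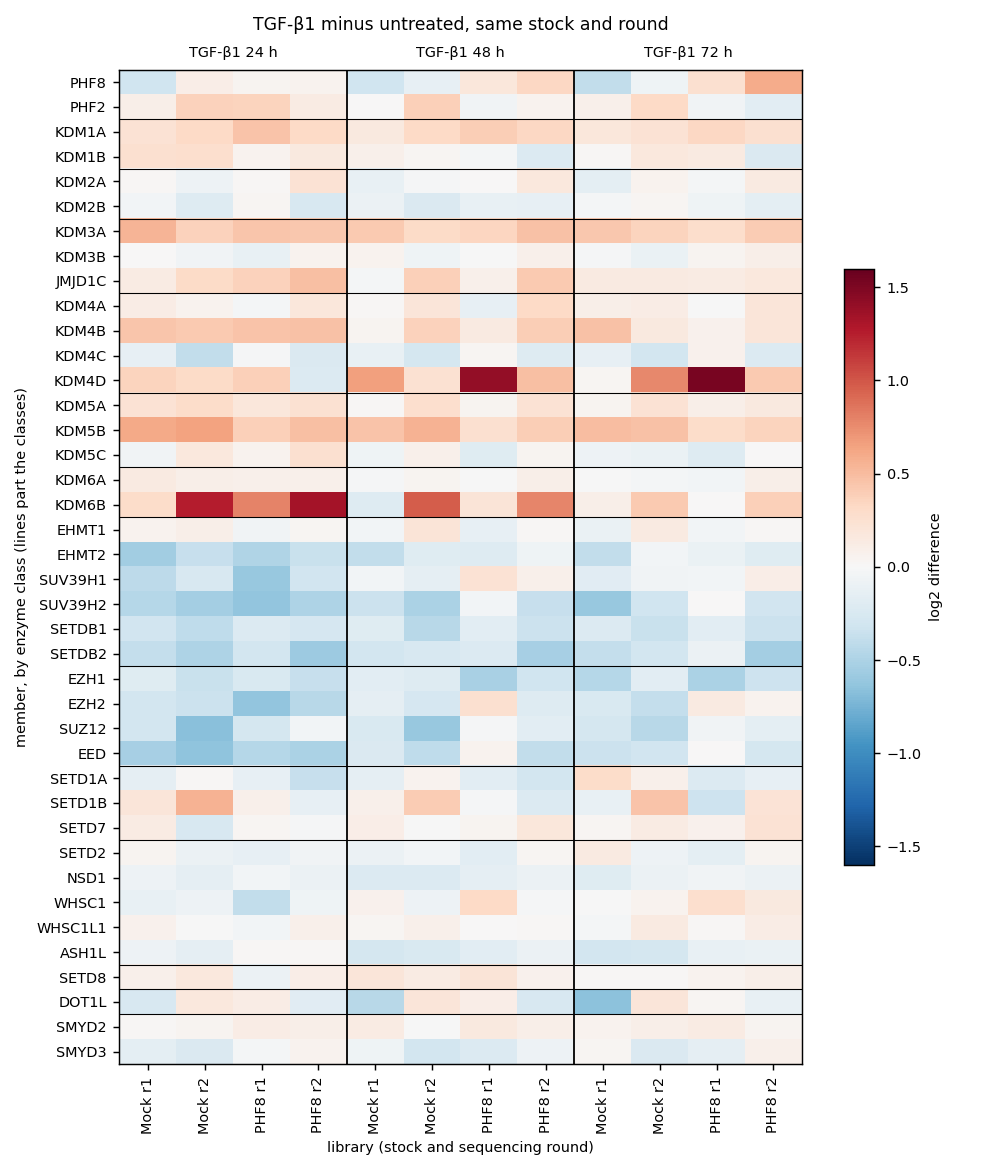
Log2 difference between each TGF-β1 library and the untreated library of the same stock and round, for the 40 members in order of class; red is higher and blue is lower, on a scale from -1.6 to 1.6. At 24 h the block of H3K9 methyltransferases and PRC2 subunits is blue in all 4 columns except for EHMT1, and KDM1A, KDM3A and KDM5B are red in all 12 columns.

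Among the methyltransferases of H3K4, H3K36, H3K79 and H4K20 and the SMYD family, ASH1L was the only member called in the TGF-β1 means without the block. ASH1L, which dimethylates H3K36, was called at the later times. It read 11.41, 11.49, 11.28 and 11.29 untreated, 11.33, 11.35, 11.29 and 11.31 at 24 h, 11.13, 11.25, 11.11 and 11.19 at 48 h and 11.12, 11.21, 11.17 and 11.19 at 72 h. At 48 and 72 h all libraries were below all untreated ones, whereas at 24 h the groups overlapped. It fell by 0.20 ± 0.0591 at 48 h (n = 4 per time; adjusted p = 0.0251) and by 0.20 at 72 h (adjusted p = 0.0299), against -0.05 at 24 h (adjusted p = 0.57). The 48 h call was lost without either round 1 library at 48 h, either untreated PHF8 library or the untreated Mock library of round 2 (adjusted p of 0.0523 to 0.0827). The 72 h call was lost without either untreated PHF8 library, the untreated Mock library of round 2, either round 1 library at 72 h or the 72 h PHF8 library of round 2 (adjusted p of 0.0599 to 0.0974).

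SETD7, which monomethylates H3K4 and non-histone proteins, read between 12.00 and 12.51 and differed by 0.11 at 72 h (adjusted p = 0.469). SETD8, the sole enzyme for monomethylation of H4K20, differed by 0.05 at 72 h (adjusted p = 0.745). DOT1L, the H3K79 methyltransferase, read 9.19 in the untreated Mock library of round 1 and 8.53 to 8.93 in the other 15, and differed by -0.14 at 72 h (adjusted p = 0.5). SMYD2, a methyltransferase of H3K36 and p53, differed by 0.08 at 72 h (adjusted p = 0.654). None of these 4 was called in a TGF-β1 comparison without the block. Between the stocks, SETD7 differed by -0.17 in round 1 and by -0.02 in round 2, each fitted alone. The 17 members that the rule for named genes left out, among them NSD1, SETD2, WHSC1 and WHSC1L1 of H3K36, SETD1A and SETD1B of H3K4 and SMYD3, differed at 24 h by -0.32 (SUZ12) to 0.24 (PHF2), and at 72 h by -0.23 (SUZ12) to 0.12 (WHSC1). Their lowest adjusted p was 0.192 at 24 h (KDM4C), 0.158 at 48 h (SMYD3) and 0.324 at 72 h (KDM5C). With the block, PHF2, KDM4C and SUZ12 were called at 24 h, SUZ12 and NSD1 at 48 h and SUZ12 at 72 h.

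At 48 h, 3 members were called (KDM1A, SETDB1 and ASH1L), or 7.5% against 31.2% of all genes. At 72 h the called members were again KDM1A, SETDB1 and ASH1L, or 7.5% against 27.4% of all genes. With the block the counts were 13, or 32.5% against 47.7%, and 11, or 27.5% against 43.7%. The comparisons at 24, 48 and 72 h share their untreated libraries. Over the H3K9 methyltransferases the median difference was -0.418 at 24 h, -0.251 at 48 h and -0.227 at 72 h, and over PRC2 it was -0.374, -0.252 and -0.233. Over the demethylases it was 0.197, 0.0982 and 0.0984. A comparison of 72 h with 24 h, added after the values were seen, called none of the 40 members, and 4 of all 13564 genes (0.0295%; 0.892% and again no member with the block). At an unadjusted p under 0.05 it gave 5 members, or 12.5% against 9.53% of all genes, with EZH2, SUV39H1 and EED higher at 72 h by 0.32, 0.35 and 0.31 and KDM5C and ASH1L lower by -0.21 and -0.15.

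Genes of the cell cycle were also lower at 24 h, where 16.3% of all genes were called lower. Of 20 cell cycle markers, all 20 had a lower mean at 24 h, 5 passed the test (PCNA, MCM2, MCM3, MCM6 and TYMS), and the median difference was -0.414, against -0.00781 over all genes. At 48 and 72 h none was called and the medians were 0.0596 and 0.0287. With the round as a block, 6 were called lower at 24 h, 3 at 48 h (MCM2, MCM3 and MCM6) and 1 at 72 h (MCM2). The block called 25% of all genes lower at 24 h, and 47.7% and 43.7% in either direction at 48 and 72 h. Summed on the linear scale, the 20 markers ranged from 62903 to 71197 in the untreated Mock libraries and from 50830 to 56012 at 24 h. In the PHF8 stock they ranged from 50658 to 64968 untreated and from 27395 to 55997 at 24 h. Their part in the falls of EZH2, EED and the H3K9 methyltransferases was not tested.

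Within the single stocks each comparison had 2 libraries per group and fewer members were called. In Mock, SETDB1 fell by 0.36 ± 0.0959 at 24 h (adjusted p = 0.0267) and EED by 0.59 ± 0.173 (adjusted p = 0.0372), which made 2 members, or 5% against 17.3% of all genes. SETDB1 was also called at 48 h (-0.32, adjusted p = 0.0434), as the only member (2.5% against 17.3%), and ASH1L at 72 h (-0.28, adjusted p = 0.0431), as the only member (2.5% against 14.4%). In the PHF8 stock at 24 h, KDM1A rose by 0.39 ± 0.107 (adjusted p = 0.0386), JMJD1C rose by 0.42 ± 0.122 (adjusted p = 0.0472) and EZH2 fell by 0.54 ± 0.143 (adjusted p = 0.0347), or 7.5% of members against 11.7% of all genes. KDM1A alone was called at 48 h (0.36, adjusted p = 0.0489; 2.5% against 12.6%). At 72 h limma called none of the members in this stock, against 9.39% of all genes, and 4 members, or 10%, had an unadjusted p under 0.05, against 23.9% of all genes. With the block, Mock gave 11, 8 and 6 members and the PHF8 stock 11, 6 and 4 at 24, 48 and 72 h, against 35.9%, 34.9% and 31.5% of all genes in Mock and 29.3%, 28.2% and 23.4% in the PHF8 stock.

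These single-stock calls rested on few libraries. The Mock 24 h call of SETDB1 was lost without either Mock library at 24 h or the untreated Mock library of round 2 (adjusted p of 0.0985 to 0.171), and that of EED in 8 of 16 fits (up to 0.19). SETDB1 at 48 h in Mock was lost in each of the 16 fits (up to 0.252), and ASH1L at 72 h in 14 (up to 0.229). In the PHF8 stock at 24 h, EZH2 was lost without either untreated PHF8 library or the 24 h PHF8 library of round 1 (adjusted p of 0.0704 to 0.205). KDM1A was lost in 7 fits at 24 h (up to 0.217) and in 14 at 48 h (up to 0.241), and JMJD1C in 12 at 24 h (up to 0.223).

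A joint test over the 3 times asked whether the response to TGF-β1 differed between the stocks. In limma it called none of the members and 0 of all 13564 genes, also with the block. At an unadjusted p under 0.05 it gave 60 genes, or 0.442%, and 1 of the members, EZH2 (limma, adjusted p = 1.00 over all genes). In the PHF8 stock EZH2 read 9.19 and 9.31 untreated, 8.56 and 8.87 at 24 h, 9.45 and 9.10 at 48 h and 9.33 and 9.37 at 72 h. In Mock it read 9.27 and 9.27, then 8.98 and 8.92, then 9.13 and 9.00, then 9.03 and 8.89. A call made in only 1 stock is therefore not shown to be particular to that stock.

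Promoters of members that moved together at 24 h were searched in the RefSeq table of GRCh38.p14, from 250 bases before to 50 after each start, on both strands. Sequences were matched for 37 of the 40 members and not for SETD1B, WHSC1L1 and DOT1L. The CCAAT box, letters CCAAT, which binds the factor NF-Y, was found in 3 of the 7 members that fell and 2 of the 6 that rose, in 40.5% of matched members and in 36.1% of the promoters of genes tested. The E2F motif, searched as TTTCGCGC, TTTGGCGC, TTTCCCGC, TTTGGCGG or TTTCGCGG, was found in 0 of the 7 that fell and in 2 of the 6 that rose, in 16.2% of matched members and in 6.02% of the promoters of genes tested. The SMAD motif, searched as GTCTAGAC or CAGACA, was found in 2 of the 7 that fell and 1 of the 6 that rose, in 10.8% of matched members and in 13.1% of the promoters of genes tested. The CHR element of cell cycle genes, searched as TTTGAA or TTCGAA, was found in 1 of the 7 and 1 of the 6, in 13.5% of matched members and in 12.2% of the promoters of genes tested. No matches of different motifs overlapped within a member's promoter. A match is a description of the letters and not a binding site. The stretches that hold the CCAAT and E2F matches follow, as the parts of the promoter in which members with the same or opposite response carry the same letters. They run 5′ to 3′ on the strand of the gene and upstream of the RefSeq start, with matches of the motif named in each label in capitals. The JMJD1C stretch also holds the CHR match of that gene, TTTGAA, left in lower case.
SUV39H1, fell (chrX:48696654-48696733, plus strand, CCAAT): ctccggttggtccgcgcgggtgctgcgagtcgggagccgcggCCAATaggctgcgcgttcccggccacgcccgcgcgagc
EED, fell (chr11:86244673-86244752, plus strand, CCAAT on the other strand): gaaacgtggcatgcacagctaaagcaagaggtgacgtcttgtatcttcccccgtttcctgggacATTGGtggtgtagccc
SETDB2, fell (chr13:49444034-49444193, plus strand, CCAAT on each strand): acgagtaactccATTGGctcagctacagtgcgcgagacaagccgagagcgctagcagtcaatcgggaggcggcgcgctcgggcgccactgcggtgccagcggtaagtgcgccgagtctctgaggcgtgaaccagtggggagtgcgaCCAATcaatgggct
KDM3A, rose (chr2:86441221-86441320, plus strand, CCAAT): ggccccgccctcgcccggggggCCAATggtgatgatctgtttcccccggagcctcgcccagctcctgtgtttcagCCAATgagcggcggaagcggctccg
KDM4B, rose (chr19:4968893-4969072, plus strand, CCAAT): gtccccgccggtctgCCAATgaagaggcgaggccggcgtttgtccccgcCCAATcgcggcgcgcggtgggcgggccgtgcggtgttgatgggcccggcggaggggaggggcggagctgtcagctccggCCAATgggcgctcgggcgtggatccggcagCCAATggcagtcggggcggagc
JMJD1C, rose (chr10:63466148-63466227, minus strand, E2F): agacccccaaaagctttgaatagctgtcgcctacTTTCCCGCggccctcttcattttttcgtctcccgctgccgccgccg
KDM5A, rose (chr12:389391-389470, minus strand, E2F): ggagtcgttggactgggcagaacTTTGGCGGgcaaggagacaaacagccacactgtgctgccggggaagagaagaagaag
Over the whole window, the CCAAT letters occurred 4 times in KDM4B and 2 times in KDM3A, which rose, and 2 times in SETDB2 and once each in SUV39H1 and EED, which fell.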

How the data were processed

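RNA of 16 libraries was sequenced with a stranded kit, per the labels. The authors deposited 1 table of log2 expression per gene. The submitters' processing notes name genome build hg19, TopHat2 2.0.13, featureCounts, Subread 1.4.6 and DESeq2, without their roles. The transformation behind the log2 values and the strand setting of the counting are not given in the sources used here. From the table of 23368 entries, 28 symbols turned into dates and 4 columns of per-sample values in a second sheet, under names that match no library, were left out. Genes reaching the filter in 2 libraries (13564) were fitted with limma 3.58.1 (trend) in R 4.3.3, with 1 mean for each of the 8 groups over all 16 libraries (8 residual degrees of freedom), and p-values were adjusted by Benjamini-Hochberg over all genes tested. A gene with an adjusted p under 0.05 was called. The procedure was tested on simulated data with independent libraries. These held no shift shared by a round, so the test cannot show how the p-values behave under such a shift.

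Members and lists were chosen with earlier results of these data known. Levels by library, at some or all times, were given for every member called in a comparison. Per class, the member with the largest 72 h difference was also named, with levels, a range or only its difference. KDM1B, EHMT1 and other relatives were added after their values were seen. Replicate numbers mark the sequencing round in the labels. Deviations of equal-numbered libraries correlated between groups at 0.206 to 0.749 (median 0.461, 28 pairs of groups), and the paired alternative added round as a block to the model. Other alternatives were no filter, a stricter filter (linear value of 100), median centring, a pseudocount of 10, no trend, each library left out and each round alone. Promoter sequences came from RefSeq (GRCh38.p14), a later build than that of the files.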

Additional observations from a re-analysis of the deposited data

How the results depend on the processing

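None of the called differences of single members changed sign under the alternatives run. Of 32 such calls, however, 10 were lost without the trend and 8 without a filter. The block, the trend and the filters leave the differences themselves unchanged, so that no sign could change there. Each round alone checked the sign of 1 call, that of PHF8 between the stocks. With the replicate block, members called in the mean stock difference went from 1 to 6 (9.11% of all genes), and in the TGF-β1 means from 3 to 13 at 48 h (47.7%) and from 3 to 11 at 72 h (43.7%). The block gave 11, 8 and 6 members in Mock and 11, 6 and 4 in the PHF8 stock at 24, 48 and 72 h, where it called 35.9%, 34.9% and 31.5% of all genes in Mock and 29.3%, 28.2% and 23.4% in the PHF8 stock. Within round 1 the stock difference called 11 members (26.9% of all genes) and within round 2 it called 3 (5.93%). Without the trend, 11 members were called in the 24 h mean (32.4% of all genes), 2 in the 48 h mean (30.2%) and 1 in the 72 h mean (25.9%). Within the stocks it called 0 in Mock at 48 h (16.1%) and 72 h (13.3%), and 1 and 0 in the PHF8 stock at 24 h (10.3%) and 48 h (11.4%). Without a filter, over a larger number of genes, 11 members were called in the 24 h mean (22.4% of all genes) and 2 in the 72 h mean (18%). Within the stocks 0 members were then called in Mock at 48 h (11%) and 72 h (9.13%), and 1 and 0 in the PHF8 stock at 24 h (6.96%) and 48 h (7.91%). The stricter filter, median centring and the pseudocount of 10 each gave 2 members in Mock at 48 h (20.6%, 17.4% and 17% of all genes). The cause was not tested.

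With each library left out in turn, members called in the 24 h mean ranged from 5 to 14, and the share of all genes called from 24% to 33.1%. They were 6 without Mock untreated replicate 1 (27% of all genes), 8 without Mock untreated replicate 2 (25.4%), 5 without Mock 24 h replicate 2 (24%) and 7 without PHF8 untreated replicate 2 (24%). The 48 h mean ranged from 2 to 5 (22.2% to 31.4% of all genes), with 5 without PHF8 untreated replicate 1 (28.3%). The 72 h mean ranged from 0 to 4 (18.4% to 27.5%), with 0 without Mock untreated replicate 2 (18.4%) and 1 without either PHF8 library at 72 h (21.1%). Mock counts ranged from 0 to 2 at 24 h (4.78% to 17.7%), were 0 throughout at 48 h (5.83% to 16.9%) and ranged from 0 to 1 at 72 h (4.56% to 14.4%). PHF8 stock counts ranged from 0 to 3 at 24 h (2.43% to 12.5%) and from 0 to 1 at 48 h (4.18% to 12.7%). A group left with 1 library was assumed to vary like the others. Only 2 libraries per group and unknown depth limit the precision of single-stock values.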

Other observations

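Other enzymes and partners of histone methylation came from lists chosen with earlier results of these data known. They were compared at 24 h of TGF-β1 in the mean of both stocks (limma, adjusted over all genes, n = 4 libraries per time). Of all genes tested, 17.1% were called higher and 16.3% lower. Of 7 histone arginine methyltransferases, 5 fell and 1 rose, with a list median of -0.634 against -0.00781 over all genes. PRMT3, which methylates a ribosomal protein, fell by 1.05 ± 0.136 (SE; adjusted p = 0.00025), and PRMT5, the main enzyme of symmetric dimethylation, fell by 0.70 ± 0.151 (adjusted p = 0.00485). PRMT1, PRMT6 and PRMT7 fell by 0.58, 0.68 and 0.63, and PRMT2 rose by 0.41. At 48 h PRMT1 and PRMT3 were called (31.2% of all genes) and at 72 h PRMT3 was called (27.4% of all genes). With the replicate block, PRMT2 was called higher and the 5 others of these 6 lower at 24, 48 and 72 h. The block called 49.5%, 47.7% and 43.7% of all genes at these times.

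Of 12 further JmjC proteins, 2 rose and 2 fell at 24 h, where 17.1% of all genes rose and 16.3% fell. The same shares apply to the lists that follow. JHDM1D (KDM7A), a relative of PHF8, rose by 1.10 ± 0.243 (adjusted p = 0.00561) and JMJD6 by 0.54 ± 0.0849 (adjusted p = 0.00079), while MINA fell by 0.61 and HSPBAP1 by 0.39. Of 7 PRC2 accessory subunits, 1 was called at 24 h, PHF1, which rose by 0.88 ± 0.14 (adjusted p = 0.000847). Of 8 LSD1-CoREST partners tested, SNAI1 rose by 3.48 ± 0.491 (adjusted p = 0.000422) and HDAC1 by 0.23, and HDAC2 fell by 0.23. Of 9 readers and partners of H3K9 methylation, CBX1 rose by 0.31 and CDYL by 0.28. Of 10 COMPASS subunits, WDR5 fell by 0.43 and PAXIP1 by 0.57. Of 15 further lysine methyltransferases, SETD6 fell by 0.76 and SMYD5 by 0.48. With the block, 24.5% of all genes were called higher and 25% lower at 24 h. Of the 15 methyltransferases, 5 were then called higher (MLL3, MLL5, SETD5, SUV420H1 and PRDM2, by 0.18 to 0.39) and 3 lower, the third being SETMAR at -0.41. At 24 h the block also called 3 higher and 3 lower of the 12 JmjC proteins and 2 higher of the PRC2 accessory subunits. It called 4 higher and 1 lower of the CoREST partners, 2 higher and 2 lower of the H3K9 readers and 3 lower of the COMPASS subunits. Each of these counts is to be read against the block shares of all genes given above.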
